A study of Homo sapiens with 4 samples.

Results

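The troponins and tropomyosins described here were 10 genes picked by symbol: 3 troponin T genes (TNNT1, TNNT2 and TNNT3), 2 troponin I genes (TNNI1 and TNNI2), 2 troponin C genes (TNNC1 and TNNC2) and 3 tropomyosin genes (TPM1, TPM2 and TPM3). They were 10 of the 39323 genes listed in the deposited tables, and the rule set no threshold on a measured value. Expression was given in transcripts per 1000000 transcripts (TPM), a unit scaled for transcript length and for library size, so levels of different genes can be set side by side. TPM followed by a digit is a gene and TPM alone is the unit. The study asked what SKP2, the substrate-recognising subunit of an SCF ubiquitin ligase, does in fusion-negative rhabdomyosarcoma (FN-RMS), a soft tissue tumour whose cells carry skeletal muscle regulators but do not complete differentiation. Poly-A RNA was sequenced from RD and JR1, both established human FN-RMS cell lines kept in serum-containing growth medium. Each line was infected with a lentiviral vector, selected with puromycin and expressed either shSCR, a non-targeting short hairpin, or shSKP2.2, a hairpin against SKP2 that the sample labels write as shSKP2, with the genotypes WT and SKP2 knockdown. There were 4 libraries, 1 for each line and hairpin, so differences below could not be checked against replicates and carry no p-value. All 4 carried a hairpin vector, only 1 SKP2 hairpin was sequenced, and the time between infection and RNA collection was not given in the sources used here.

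Troponins and tropomyosins are the calcium switch of the striated muscle thin filament. Tropomyosin lies along actin, troponin T fastens the troponin complex to tropomyosin, troponin I holds back the interaction of actin with myosin, and troponin C binds calcium and releases that block. Troponin T and troponin I each come from separate genes for slow skeletal, fast skeletal and cardiac muscle. Troponin C has a fast skeletal gene and a gene shared by slow skeletal and cardiac muscle. Developing skeletal muscle also expresses cardiac forms. Tropomyosin genes differ in that each makes muscle and non-muscle isoforms through alternative promoters and splicing, so a gene-level value does not tell the isoforms apart.

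SKP2 itself was at 92.8 TPM with shSCR and 7.40 with shSKP2.2 in RD, and at 46.5 and 2.72 in JR1. A change below is the log2 ratio of TPM + 1, shSKP2.2 over shSCR in the same line, and a gene was called when the change was at least 1 in size. A gene was tested for this if its 4 libraries averaged 1 TPM or more, which left 12985 genes and all 10 troponins and tropomyosins. Genes of structural RNA, recognised by symbol, took 58.6% of all TPM in RD with shSCR and 69.1% with shSKP2.2, and 66.5% and 72.1% in JR1. Across all tested genes the median change was -0.27 for RD and -0.21 for JR1. With the structural RNA genes removed and the remaining values rescaled, the same filter left 15199 tested genes, a larger set than the 12985. All shares of tested genes on that scale refer to this set. The median there was 0.12 for RD and 0.01 for JR1, so each change is also given on that scale where its direction differed. Of 7 skeletal muscle lineage markers 5 were tested. MYOD1, MYOG, CHRNA1 and DES were between 31.6 and 425 TPM, PAX7 fell by 1.43 in RD and by 1.43 in JR1, and MYF5 was listed at 0 throughout. MYF6 was at or below 0.5 TPM. Of the 5 tested markers, 4 were higher and 1 lower with shSKP2.2 in RD, and 3 were higher and 2 lower in JR1. DES had a change of 0.14 for RD but -0.50 for JR1, and -0.25 for JR1 without structural RNA genes. The 7 markers summed to 365 TPM (shSCR) and 513 (shSKP2.2) for RD, and to 495 and 701 for JR1. CHRNA1 was the largest part of each sum, with changes of 0.67 for RD and 0.58 for JR1. The part of these markers in the changes below was not tested.

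RefSeq promoter sequences were at hand for 5 of the 10 genes, in 7 promoters: TNNT1, TNNT2, TPM1, TPM2 and TPM3. TNNT3, TNNI1, TNNI2, TNNC1 and TNNC2 had no entry. The 250 bases before the start are printed for TNNT1 and TPM2, the most abundant of the 7 troponins and of the 3 tropomyosins in every library, and for TNNT2, the cardiac troponin T with a larger share of troponin T after SKP2 depletion in RD and in JR1. They run 5′ to 3′ on the gene's strand, which is the minus strand of GRCh38.p14 for each, at chr19:55149207-55149456 for TNNT1, chr1:201377681-201377930 for TNNT2 and chr9:35690057-35690306 for TPM2. The TNNT1 and TNNT2 windows lie partly inside the annotated gene span. Capitals mark CANNTG, the E-box pattern bound by basic helix-loop-helix factors such as MYOD1 and MYOG, and CATTCC, the pattern bound by TEAD factors.
TNNT1: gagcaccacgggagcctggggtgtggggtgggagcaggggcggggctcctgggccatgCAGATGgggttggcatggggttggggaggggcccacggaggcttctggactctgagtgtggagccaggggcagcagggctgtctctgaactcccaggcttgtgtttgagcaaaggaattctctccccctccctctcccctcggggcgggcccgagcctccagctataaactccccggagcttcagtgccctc
TNNT2: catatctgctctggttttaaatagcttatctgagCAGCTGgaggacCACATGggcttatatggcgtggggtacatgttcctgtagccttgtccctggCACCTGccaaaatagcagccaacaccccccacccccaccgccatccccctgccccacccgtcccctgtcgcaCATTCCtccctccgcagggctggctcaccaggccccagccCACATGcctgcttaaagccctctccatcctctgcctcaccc
TPM2: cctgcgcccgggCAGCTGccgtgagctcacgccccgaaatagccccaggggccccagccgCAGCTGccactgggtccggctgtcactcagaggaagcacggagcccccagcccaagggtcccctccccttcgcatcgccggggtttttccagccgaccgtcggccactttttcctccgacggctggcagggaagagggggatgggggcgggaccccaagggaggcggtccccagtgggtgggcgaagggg
TNNT2 held 4 matches to CANNTG, of which 1 read CAGCTG, and 1 match to CATTCC. In the TPM2 window both of its 2 matches read CAGCTG, and in the TNNT1 window the 1 match did not. The 1 TPM1 window, a downstream TPM2 start and 1 of 2 TPM3 starts held no match to either pattern, and the other TPM3 start held 2 matches to CANNTG. The TPM1 and TPM3 windows lie wholly inside the annotated gene spans, so the sequence before the outer 5′ end of those spans was not searched. Patterns were searched on both strands, where CANNTG and CAGCTG read the same and CATTCC was also sought as its reverse complement. Every CAGCTG is counted within CANNTG too. Over 35116 promoter windows of this length, 61.8% held CANNTG, 14.0% held CAGCTG and 11.9% held CATTCC. These are matches of letters and no binding was measured here.

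In control cells the RD levels of the 10 genes lay between 0.120 and 215 TPM, and the JR1 levels between 0.870 and 155. TNNT1, the slow skeletal troponin T, stood at 215 TPM in RD and 136 in JR1, above 97.8% and 97.2% of the tested genes. All 3 tropomyosin genes were between 45.1 and 162 TPM in both lines with shSCR. TNNT2 was the next troponin, at 32.9 TPM in RD and 29.1 in JR1. The remaining 5 troponin genes were each under 6 TPM in RD, and in JR1 only TNNI1 among them was above that level, at 22.1. TNNT3, the fast skeletal troponin T, was lowest in both lines. With 1 library each, neighbours in this order cannot be told apart by any spread.

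**Figure D1:**
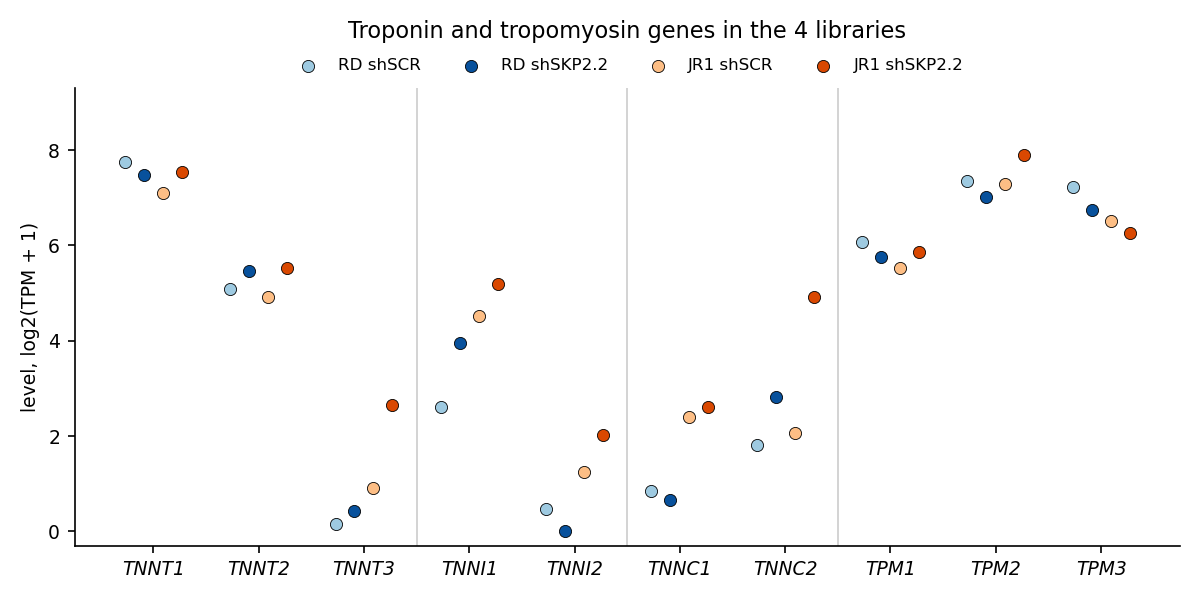
Level of the 10 genes in each of the 4 libraries, as log2(TPM + 1), with 1 point per library. TNNT1 and the tropomyosins lie at the top in every library. TNNC2 and TNNT3 show their highest points in JR1 with shSKP2.2, as do TNNT2, TNNI1, TNNI2, TNNC1 and TPM2.

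After SKP2 depletion, 1 of the 10 genes rose in RD (TNNI1) and 2 rose in JR1 (TNNC2 and TNNT3), and none fell by the limit in either line. Of all tested genes 1.08% rose and 7.37% fell in RD, and 1.78% rose and 9.05% fell in JR1. In such bulk RNA, more cells with a transcript and more transcript per cell cannot be told apart. The median change of the 10 genes was -0.24 in RD and 0.61 in JR1. For the 7 troponins alone it was 0.27 in RD and 0.66 in JR1, and for the 3 tropomyosins it was -0.32 and 0.33. In RD, 4 of the 10 changes lay above 0, where 24.6% of all tested genes did, and in JR1 9 of 10 did, where 30.9% of all tested genes did. On the scale without structural RNA genes, 2 of the 10 rose in RD (TNNI1 and TNNC2) and 3 in JR1 (TNNT3, TNNI2 and TNNC2), and again none fell. Of the 15199 genes tested on that scale, 4.40% rose and 3.45% fell in RD, and 4.90% rose and 7.48% fell in JR1. On that scale 7 of the 10 changes lay above 0 in RD and 10 in JR1, beside 60.7% and 51% of all tested genes.

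Among the troponin T genes, the rarest had the largest change in JR1 and TNNT2 the largest in RD. TNNT3 was at 0.120 and 0.350 TPM in RD and rose from 0.870 to 5.31 TPM in JR1. The RD change was 0.27 and the JR1 change 1.75, and the percentile of TNNT3 among tested genes went from 2.6 to 39.4 in JR1. The cardiac gene TNNT2 was at 32.9 and 43.0 TPM in RD and at 29.1 and 45.2 in JR1, changes of 0.38 and 0.62 that stayed under the limit. Here and below, a pair of values in a line gives shSCR first and shSKP2.2 second. Both shSKP2.2 values of TNNT2 lay above both shSCR values. TNNT1 did not share this pattern: its RD values were 215 and 176.5 TPM and its JR1 values 136 and 187 TPM. The changes were -0.28 for RD and 0.46 for JR1, against 0.14 and 0.72 without structural RNA genes, so its direction in RD depends on the scale.

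Of the inhibitory subunits, the slow skeletal gene TNNI1 held most of the signal. In RD TNNI1 rose by 1.33, from 5.14 to 14.4 TPM, and in JR1 its values of 22.1 and 35.5 TPM gave a change of 0.66. It was thus under the limit in the line where its level was higher. The fast skeletal gene TNNI2 was at 0.390 TPM in RD with shSCR and listed at 0 with shSKP2.2, and at 1.37 and 3.06 TPM in JR1. TNNI2 was below 1 TPM in both RD libraries, and no plain TPM ratio is given against the value listed at 0. On the TPM + 1 scale used for changes, which 0 enters as 1, TNNI2 was at -0.48 in RD and 0.78 in JR1. TNNI3, the cardiac troponin I and not one of the 10 genes, stayed between 1.13 and 1.81 TPM in all 4 libraries.

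Troponin C, the calcium-binding subunit, showed the widest difference of the 10 genes. TNNC2, the fast skeletal form, was at 2.53 TPM in RD with shSCR and 6.05 with shSKP2.2, and in JR1 it rose from 3.21 to 29.1 TPM. In plain TPM the ratio was 2.39 in RD and 9.08 in JR1. In JR1 the change was 2.84. The RD change of 0.998 was just short of the limit, and without structural RNA genes it was past it, at 1.53. In JR1 the percentile of TNNC2 among tested genes went from 21.4 to 85.1. TNNC1, the form of slow skeletal and cardiac muscle, was at 0.790 and 0.570 TPM in RD and at 4.27 and 5.14 in JR1, with changes of -0.19 and 0.22. Its 2 JR1 values lay above its 2 RD values whatever the hairpin.

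The tropomyosin genes were abundant and stayed under the limit in both lines. TPM2, whose muscle isoform is beta-tropomyosin, was at 162 and 129 TPM in RD and at 155 and 238 in JR1, changes of -0.32 and 0.61. TPM1, the gene of alpha-tropomyosin, was at 66.4 and 53.3 TPM in RD and at 45.1 and 57.1 in JR1, changes of -0.31 and 0.33. Without structural RNA genes both RD changes were 0.10, so the lower deposited values in RD are not kept on that scale. TPM3, which makes slow muscle and widely used non-muscle tropomyosins, was lower with shSKP2.2 in both lines, at 149.5 and 106 TPM in RD and 90.6 and 76.2 in JR1. Its changes were -0.49 and -0.25, and without structural RNA genes they were -0.07 and 0.02. TPM4, a mainly non-muscle tropomyosin outside the 10 genes, fell from 224 to 111 TPM in RD, a change of -1.01, and was at 149 and 113 in JR1, a change of -0.40. Without structural RNA genes the TPM4 changes were -0.59 and -0.13, under the limit in both lines. The pseudogene TPM3P9 was at 2.05 to 3.82 TPM and TPM1-AS, a gene that overlaps TPM1, at 2.42 to 4 TPM, far below TPM3 and TPM1. GENCODE release 44 lists 39 transcripts for TPM1, 10 for TPM2 and 27 for TPM3. A gene value does not separate transcripts.

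The make-up of each family does not depend on the scaling of a library, since every share is taken within 1 library. TNNT1 made up 86.7% of troponin T in RD with shSCR and 80.3% with shSKP2.2, and 81.9% and 78.7% in JR1. TNNT2 took 13.3% and 19.6% in RD and 17.6% and 19.0% in JR1, while TNNT3 went from 0.0484% to 0.159% in RD and from 0.525% to 2.24% in JR1. Thus the slow gene held the lower share and the cardiac and fast genes the higher share with shSKP2.2 in both lines. Troponin C shifted most: TNNC2 made up 76.2% of it in RD with shSCR and 91.4% with shSKP2.2, and 42.9% and 85.0% in JR1. In JR1 the slow and cardiac form was therefore the larger part of troponin C in control cells and the smaller part after SKP2 depletion. Troponin I was mostly TNNI1 in every library, between 92.1% and 100% of TNNI1 and TNNI2 together. With TNNI3 counted as well, TNNI1 was at 70.2% in RD with shSCR and 91.4% with shSKP2.2, and at 89.8% and 87.9% in JR1, while TNNI3 held 24.5%, 8.62%, 4.59% and 4.49% in the same order. Within the 3 tropomyosins, TPM2 went from 42.8% to 44.8% in RD and from 53.4% to 64.1% in JR1, and TPM3 from 39.6% to 36.8% and from 31.1% to 20.5%. When TPM4 was counted as well, TPM4 went from 37.3% to 27.8% of tropomyosin in RD and from 33.8% to 23.3% in JR1, and TPM2 from 26.9% to 32.3% and from 35.3% to 49.2%.

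Fast skeletal genes (TNNT3, TNNI2 and TNNC2) together came to 3.04 TPM in RD with shSCR and 6.40 with shSKP2.2, and to 5.45 and 37.5 TPM in JR1. The slow and cardiac troponin genes came to 254 and 235 TPM in RD and to 191 and 272 TPM in JR1. As a share of all troponin TPM, the fast genes were at 1.18% and 2.66% in RD and at 2.77% and 12.1% in JR1. TNNC2 alone gave 29.1 of the 37.5 TPM in JR1 with shSKP2.2. When the fast share was instead averaged over the 3 subunits with equal weight, it was 27.8% and 30.5% in RD and 16.4% and 31.7% in JR1, so the order of the control libraries depends on this choice.

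The troponin complex holds equal numbers of the T, I and C subunits, and the transcripts were far from equal. In RD with shSCR the summed TPM was 248 for troponin T, 5.53 for troponin I and 3.32 for troponin C. In RD with shSKP2.2 the sums were 220, 14.4 and 6.62. The RD ratio of summed troponin T, shSKP2.2 over shSCR, was 1.19 without structural RNA genes in place of 0.886, and that of summed tropomyosin 1.02 in place of 0.764. In JR1 the sums were 166, 23.5 and 7.48 with shSCR and 237, 38.5 and 34.3 with shSKP2.2. The excess of troponin T transcript over the other subunits was smaller with shSKP2.2 in each line. Troponin T over troponin I went from 44.9 to 15.2 in RD and from 7.06 to 6.15 in JR1, and troponin T over troponin C from 74.7 to 33.2 and from 22.1 to 6.92. The second of these rests on TNNC2, because with TNNC1 as the only troponin C the ratio was 314 and 386 in RD and 38.8 and 46.1 in JR1, higher with shSKP2.2. Troponin I over troponin C was 1.67 and 2.18 in RD and 3.14 and 1.12 in JR1. Tropomyosin over troponin T stayed between 1.31 and 1.76 in the 4 libraries. These are ratios of transcripts, and protein was not measured in these files.

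JR1 and RD differed before SKP2 depletion. With shSCR, 2 of the 10 genes were called higher in JR1 and 0 lower, where 3.45% and 6.50% of all tested genes were. TNNI1 was 4.30 times and TNNC1 5.41 times the RD level in plain TPM, with TNNC1 at 0.790 TPM in RD. With shSKP2.2, 5 of the 10 were called higher in JR1 (TNNT3, TNNI1, TNNI2, TNNC1 and TNNC2) and 0 lower, beside 2.70% and 5.39% of all tested genes. The plain ratio was 15.2 for TNNT3, 9.02 for TNNC1, 4.82 for TNNC2 and 2.46 for TNNI1. The TNNT3 and TNNC1 ratios rest on RD values of 0.350 and 0.570 TPM, and the TNNI2 call on the value listed at 0 in the same RD library. Without structural RNA genes 4 of the 10 were called higher in JR1 with shSCR and 6 with shSKP2.2, beside 6.99% and 4.94% of all tested genes. TNNT1 and TNNT2 were almost level between the lines with shSKP2.2, with JR1 over RD at 0.08 and 0.07 on the log2 scale. The signed change was higher in JR1 than in RD for 9 of the 10 genes, TNNI1 being the other, and for 57.9% of all tested genes. TPM3 is among the 9 because its change was less negative in JR1. The JR1 change exceeded the RD change by at least 1 for 3 of them (TNNC2 by 1.84, TNNT3 by 1.49 and TNNI2, with its RD value listed at 0, by 1.25), beside 1.19% of all tested genes. A difference between lines and one between single libraries cannot be told apart here.

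Other genes of the thin filament give the setting of these values. Of 20 thin filament companions, which build, cap or bind sarcomeric actin, 16 were tested, 4 rose and 1 fell in RD, and 8 rose and 1 fell in JR1. Beside them, 1.08% of all tested genes rose and 7.37% fell in RD, and 1.78% rose and 9.05% fell in JR1. The list had a median change of 0.64 for RD and 1.00 for JR1. Without structural RNA genes 11 of its genes rose and 1 fell in each line. On that scale 4.40% of all tested genes rose and 3.45% fell in RD, and 4.90% rose and 7.48% fell in JR1. LDB3, a Z-disc protein, rose in RD from 0.680 to 5.80 TPM and in JR1 from 2.58 to 20.0 TPM. KLHL41, a regulator of thin filament assembly, rose from 81.1 to 243 TPM and from 106 to 448. ACTC1, cardiac alpha-actin and the main sarcomeric actin in these cells, was at 299.8 and 584 TPM in RD and rose from 504 to 1741 TPM in JR1. MYPN, a Z-disc protein, rose by 1.34 and 1.44 on the log2 scale. TMOD3, a widely expressed cap of actin filaments, fell by 1.31 and 1.39 on the log2 scale. Skeletal alpha-actin ACTA1 was not tested, at 0.190 to 1.57 TPM.

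Actin-binding genes used outside the sarcomere were described from a separate list of 10 genes that includes TPM4. None rose by the limit in either line, 3 fell in RD and 1 fell in JR1, beside 7.37% and 9.05% of all tested genes that fell. The median change was -0.57 in RD and -0.27 in JR1, against -0.27 and -0.21 for all tested genes. CNN3, a calponin of non-muscle actin, fell in RD from 129.6 to 35.2 TPM and in JR1 from 154 to 41.7 TPM. FLNA, filamin A, fell from 292 to 139.9 TPM in RD and was at 149.6 and 100.2 in JR1. Without structural RNA genes the medians of this list were -0.16 and -0.03, and CNN3 alone still fell by the limit in both lines. Its changes there were -1.45 and -1.61. On that scale 3.45% of all tested genes fell in RD and 7.48% in JR1.

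Of 17 transcription factors and cofactors of muscle fibre genes, 15 were tested, 0 rose in RD and 2 rose in JR1, and 0 fell in either line. MEF2C, an activator of striated muscle genes, was at 0.980 and 2.05 TPM in RD and rose from 1.76 to 18.7 TPM in JR1. MEF2A, of the same family, had changes of 0.36 in RD and 1.08 in JR1. MYOG, which drives terminal myogenic differentiation, was at 31.6 and 58.4 TPM in RD and at 54.0 and 107 in JR1, under the limit in both as deposited. Without structural RNA genes the MYOG changes were 1.298 in RD and 1.249 in JR1, past the limit in both lines. NFATC1, a calcineurin-responsive factor linked to slow fibres, had the lowest mean change, at -0.68 and -0.74. Of 10 splicing factors known to act on troponin T or tropomyosin transcripts, 9 were tested, 0 rose in RD and 2 rose in JR1, and 0 fell. Of all tested genes 1.08% rose and 7.37% fell in RD, and 1.78% rose and 9.05% fell in JR1. CELF1 went from 23.8 to 44.7 TPM in RD and rose from 23.4 to 54.7 in JR1, and RBFOX1 rose from 8.01 to 17.1 TPM in JR1. PTBP1, a repressor of muscle exons, was at 158 and 96.1 TPM in RD and at 76.4 and 49.1 in JR1. Without structural RNA genes 3 of these transcription factors and 2 of the splicing factors rose in RD, and 4 and 3 in JR1, again beside 4.40% and 4.90% of all tested genes. Exon use was not measured by these gene-level values.

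The genes whose levels followed TNNC2 most closely over the 4 libraries, by Euclidean distance of centred log2(TPM + 1), were CKM (0.315), MEF2C (0.490), CASQ2 (0.493), GJA5 (0.540) and APOBEC2 (0.576). CKM, muscle creatine kinase, was at 2.92 and 6.65 TPM in RD and at 5.01 and 36.7 in JR1, and CASQ2 encodes a calsequestrin of the sarcoplasmic reticulum. This likeness is a description over 4 libraries.

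Troponin I and troponin T genes lie in pairs in the genome. TNNI1 and TNNT2 are 25955 bases apart on chromosome 1, at chr1:201403784-201421730 and chr1:201359014-201377828, with LAD1 and an uncharacterised gene between them. TNNI1 rose in RD and TNNT2 stayed under the limit, while LAD1 was at 1.00 to 2.42 TPM in the 4 libraries. TNNI2 and TNNT3 are 77872 bases apart on chromosome 11, at chr11:1838981-1841678 and chr11:1919551-1938704, with 5 genes between, of which LSP1 was at 2.99 to 6.95 TPM and the others were listed at 0. TNNT1 lies on chromosome 19 at chr19:55132698-55149332, 2434 bases from TNNI3, and was at 136 to 215 TPM where TNNI3 was under 2 TPM. The other members are at chr3:52451100-52454041 (TNNC1), chr20:45823214-45833329 (TNNC2), chr15:63042698-63071915 (TPM1), chr9:35681993-35690056 (TPM2) and chr1:154155308-154192100 (TPM3), all in the deposited coordinates on GRCh38.

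TNNT2 and TNNC1 are also genes of heart muscle, so heart markers were read beside them. Of 8 heart markers 2 were tested: NKX2-5, at 13.2 to 18.5 TPM, and TNNI3. TBX5, a defining heart factor, was listed at 0 in all 4 libraries, and MYH6, NPPA, NPPB, MYBPC3 and RYR2 were each at or below 0.440 TPM. The summed level of the heart list was 15.0 to 20.4 TPM over the 4 libraries. Of 7 smooth muscle markers 3 were tested, MYOCD was listed at 0 throughout and MYH11 was at or below 0.110 TPM. Of the tested ones, SMTN was at 5.27 to 10.8 TPM and CNN1 at 1.61 to 6.29. TAGLN fell from 18.5 to 7.37 TPM in RD, a change of -1.22, and was at 12.1 and 7.24 in JR1. Thus 1 marker fell in RD and 0 in JR1, beside 7.37% and 9.05% of all tested genes. Without structural RNA genes the TAGLN change in RD was -0.88, under the limit. Summed, they came to 36.2 and 21.3 TPM in RD with shSCR and shSKP2.2, and to 22.0 and 15.5 TPM in JR1. The part of any such cells in the tropomyosin values was not tested.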

How the data were processed

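Poly-A RNA from RD and JR1 cells expressing shSCR or shSKP2.2 was sequenced, 1 library per line and hairpin. The authors aligned reads to GRCh38 with STAR 2.7.9a and deposited gene-level TPM values from RSEM 1.3.2, with 2 decimals and summing to 1000000 per library. The annotation version was not given in the sources used here. TPM keeps no read depth, so counting error is unknown and no interval is given. Strand-specific kits were used, but how RSEM treated strand was not given.

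Samples were grouped by their titles. Changes were log2 ratios with a pseudocount of 1 among genes averaging 1 TPM or more, called at a size of 1 (2-fold). Shares, sums and ratios used TPM within a library. Reads of near-identical isoform genes may be split between them by RSEM. Named genes were the 10 members, TNNI3, TPM4, SKP2, pseudogenes of the members by symbol, up to 6 genes of each list by mean change over both lines plus its lowest, and the 5 genes nearest in profile to the member whose smaller change of the 2 lines was largest. ACTA1, LAD1, LSP1, TPM1-AS and the marker genes were named after their values were seen. The members and lists were chosen with earlier results of these data known. Alternatives were another scaling, pseudocount, filter or limit and other family members. The calculation was tested on simulated data. Python 3.11.15, numpy 2.4.6 and pandas 2.3.3 were used.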

Additional observations from a re-analysis of the deposited data

Results flagged for a closer look

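For 5 genes the 2 lines moved to opposite sides of 0 in the deposited values, each with 1 library per line and hairpin, and the difference between lines was not tested. The JR1 change minus the RD change was 0.74 for TNNT1 (0.46 and -0.28), 1.25 for TNNI2 (0.78 and -0.48), 0.41 for TNNC1 (0.22 and -0.19), 0.64 for TPM1 (0.33 and -0.31) and 0.93 for TPM2 (0.61 and -0.32), all on the log2(TPM + 1) scale. Opposite signs were seen in 21.3% of all tested genes. Without structural RNA genes the RD changes of TNNT1, TPM1 and TPM2 were 0.14, 0.10 and 0.10, on the same side of 0 as JR1, and relative to the median of tested genes that of TNNC1 was 0.08. TNNI2 kept opposite directions under both, with RD values of 0.390 TPM and a value listed at 0.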

How the results depend on the processing

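With 1 library per group there is no replicate spread, so a log2 value was taken as moved past 0.5, a share past 5 percentage points and a count or ratio past 1.5 times. Hairpins were compared within each line, and a model with line and hairpin as terms, which leaves 1 residual degree of freedom, was not fitted. No library was left out, since each group held 1. Of 94 recomputed changes of the 10 genes with shSKP2.2, 5 turned sign (4 without structural RNA genes, 1 relative to the median) and 6 moved past 0.5. Many of the 94 could not move. A filter only selects genes, so the 20 values for all genes above 0 and the 14 with a minimum mean of 5 TPM equal those reported. The 20 relative to the median shift by the same amount within a line, under 0.5, so they could turn sign but not move past 0.5. The number of members that rose in RD was 1 as reported, 2 without structural RNA genes, 2 relative to the median, 3 with a pseudocount of 0.1 and 2 with a limit of 1.5-fold. Of all tested genes 1.08%, 4.40%, 2.09% and 2.15% rose in RD under the first 4 of these. One with a pseudocount of 0.1 was TNNT3, at 1.03, which was under 1 TPM in both RD libraries. With that pseudocount 1 member fell in RD, TNNI2, which was listed at 0 with shSKP2.2, beside 10.9% of all tested genes. In JR1 the number that rose was 2 as reported, 1 with a minimum mean of 5 TPM, which left TNNT3 out, 3 without structural RNA genes, 3 with a pseudocount of 0.1 and 6 with a limit of 1.5-fold. Of all tested genes 1.78%, 1.60%, 4.90% and 2.91% rose in JR1 under the first 4 of these. No such share was computed for the limit of 1.5-fold in either line, so those counts have no background beside them. The change of summed troponin T in RD was -0.17 as deposited, 0.25 without structural RNA genes, 0.10 relative to the median, and 0.38 without TNNT1, which was left out after seeing the data. That of summed tropomyosin was -0.39, and 0.03 without structural RNA genes. The fast share averaged over subunits was 27.8%, 30.5%, 16.4% and 31.7% in RD shSCR, RD shSKP2.2, JR1 shSCR and JR1 shSKP2.2. Troponin T over TNNC1 alone, also chosen after seeing the data, was 314, 386, 38.8 and 46.1 in the same order. No called change reversed under the alternatives run. Levels near 1 TPM carry an unknown counting error.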
